A study of Bos taurus with 252 samples.

Results

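Oxidative phosphorylation is carried out by 5 protein complexes of the inner mitochondrial membrane, and the genes described here are those of the nucleus that encode their subunits. Members were taken by symbol from the table of gene counts: rows beginning with NDUFA, NDUFB, NDUFC, NDUFS or NDUFV, with SDHA to SDHD, with UQCR, with COX4 to COX8 or with ATP5, without the NDUFAF assembly factors, and with a level above 0.2 CPM (the usual counts-per-million scale, on library totals scaled by TMM) in at least 12 libraries. This rule gave 89 members among the 19056 genes tested. They comprised 37 genes of complex I, 4 of complex II, 8 of complex III, 15 of complex IV and 17 of complex V, together with the 4 SDHAF factors that help to assemble complex II, the ATP synthase inhibitor ATP5IF1, the ATP synthase coupling factor ATP5S, the supercomplex factor COX7A2L and COX7ALP1, which its symbol marks as a pseudogene. NDUFA4 was counted with complex IV, of which it is now known to be a subunit. Of 91 symbols with these prefixes, NDUFA4L2 and COX4I2 failed the CPM limit, with 11 and 0 libraries above it, whereas COX7B2 passed with 61 libraries.

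Complexes I and II pass electrons from NADH and succinate to ubiquinone, complex III passes them on to cytochrome c, complex IV passes them to oxygen, and complex V (ATP synthase) uses the resulting proton gradient to make ATP. A small set of subunits is encoded in mitochondrial DNA, so that nuclear and mitochondrial transcripts have to be made for the same complexes. In blood, lymphocytes and monocytes rely on these complexes, neutrophils hold few mitochondria and depend mostly on glycolysis, and maturing red cells lose their mitochondria. Antimicrobials that act on bacterial ribosomes, such as florfenicol and oxytetracycline, can also inhibit the mitochondrial ribosome, and fluoroquinolones such as enrofloxacin act on bacterial topoisomerases.

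Whole blood came from 42 crossbred beef steers divided evenly over 7 groups, so that each group held 6. It was drawn on day 0 just before a single administration, and again after 3, 7, 14, 21 and 56 days. NC was the negative control without an antimicrobial, and the other groups were CEFT (given ceftiofur), ENRO (given enrofloxacin), FLOR (given florfenicol), OXYT (given oxytetracycline), TILD (given tildipirosin) and TULA (given tulathromycin). All steers, NC included, had received tildipirosin, a growth implant, antiparasitic drugs and vaccines at an earlier facility, each group occupied a pen of its own, groups were always handled in the same order with NC first, and no steer was treated for disease after day 0. Pen, order of handling and treatment therefore cannot be told apart. Steers of NC and ENRO were sequenced on lane 1, those of TULA on lane 2 and those of CEFT and OXYT on lane 3, whereas FLOR was split between lanes 1 and 2 with 2 and 4 steers, and TILD between lanes 2 and 3 with 4 and 2.

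Library totals ranged from 26.1 to 74.1 M counts (M for mega) around a median of 43.6 M. The share of hemoglobin counts had a median of 0.900% and a range of 0.00405% to 25.5%. The summed level of the 89 members lay between 4807 and 9058 CPM, with a median of 6116 CPM. Markers of T cells and monocytes were detected in every library, as whole blood should show, and 8 of 10 neutrophil markers were tested (CSF3R and FPR1 were not). Transcripts of skeletal and heart muscle exceeded 100 CPM (unscaled) in 4 libraries, namely steers 5 and 10 of CEFT and steer 7 of TILD on day 3 and steer 15 of NC on day 7.

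Members moved mainly upward after day 0. In the edgeR fit with steer as a block, 35 members were higher and 3 lower on day 3 (FDR 0.05). The counts were 54 and 3 for day 7, 57 and 10 for day 14, 47 and 14 for day 21, and 41 and 13 for day 56. On day 14, the day with the most calls, 64% of members were higher, against 32.7% of all genes tested, and 29.9% of all genes were lower. Among all genes, 20.5% were higher by day 3, 24% by day 7, 32.6% by day 21 and 32.5% by day 56, and the share of members was 39.3%, 60.7%, 52.8% and 46.1%. The share of all genes called lower was 18.3%, 19.7%, 31.6% and 30.7% on those 4 days. The shifts were small in size, with a median log2 fold change over members of 0.10, 0.16, 0.22, 0.17 and 0.11 on the 5 days, against 0.02 to 0.03 over all genes. In whole blood, fewer cells of a type and less RNA per cell cannot be told apart, and this holds for every level given here.

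**Figure D1:**
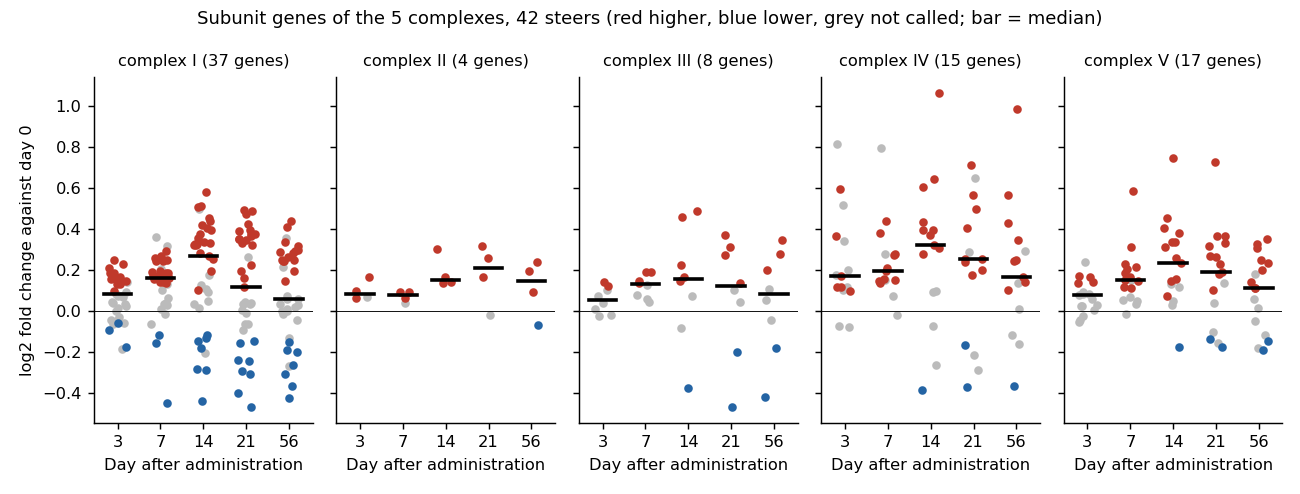
Each point is 1 subunit gene, placed by its log2 fold change against day 0 in 42 steers on the day given on the horizontal axis, with 1 panel for each complex. Red points were called higher and blue points lower at an edgeR FDR of 0.05, grey points were not called, and the bar is the median. The median lay above 0 on each day in all 5 complexes. On days 14, 21 and 56 most blue points are in complex I, the largest set. The share of its genes called lower was 18.9%, 21.6% and 18.9% on those days, against 12.5%, 25% and 25% in complex III.

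The change was also seen steer by steer. The median change over the 89 members from day 0 to day 14 ranged from −0.26 to 0.72 (log2), with a median of 0.27, and lay above 0 in 35 of 42 steers. It lay above 0 in 30 steers on days 3 and 7, in 36 on day 21 and in 33 on day 56. Steer 10 of ENRO had the lowest value on all 5 days, and the highest values came from steer 10 of CEFT on days 3 and 14 and from steer 5 of OXYT on day 7. Within a group, all 6 steers of CEFT, TILD and TULA lay above 0 on day 14, against 5 of NC and OXYT, 4 of FLOR and 3 of ENRO.

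The lanes differed in how far members moved. On day 14, 63 members were higher and 4 lower in the 14 steers of lane 3, 52 and 8 in the 14 steers of lane 2, and 24 and 9 in the 14 steers of lane 1, which were those of NC and ENRO with 2 of FLOR. The median log2 fold change of the members was 0.39, 0.30 and 0.02 in lanes 3, 2 and 1, and 24.2%, 24.2% and 19.3% of all genes were called higher in these fits, and 23.9%, 23.4% and 19.9% lower. On day 7 the median was −0.02 in lane 1, with 2 members higher and 4 lower, and 0.27 in lane 2, with 59 higher and 1 lower. Among all genes on that day, 5.62% were higher and 8.52% lower in lane 1, and 17.4% and 15.3% in lane 2. In either direction, 6.74% of members and 14.1% of all genes were called on day 7 in lane 1, and 37.1% and 39.2% on day 14, so that the share of members called was not above that of all genes there. In the 6 NC steers alone, 16 members were higher and 4 lower on day 14 at a median of 0.11, against 12.4% and 13.4% of all genes. On day 21, 22 were higher and 0 lower at a median of 0.20, against 9.91% and 10.4% of all genes. The shares called in either direction in NC were 22.5% of members and 25.9% of all genes on day 14, and 24.7% and 20.4% on day 21. Lane is confounded with treatment for most groups, so that their parts in this difference cannot be told apart.

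Over the 5 days together, 30 members (33.7%) were called higher on each of them, against 14.2% of all genes, and 0 were called lower on each, against 10.9%. Of the members, 7 (7.87%) were not called on any day, against 19.3% of all genes (ATP5ME, ATP5S, COX7A1, COX7ALP1, COX7B2, NDUFA6 and NDUFB6). Late in the study, 8 members (8.99%) were called lower on days 14, 21 and 56 alike, a smaller share than the 24.7% of all genes that were. NDUFB3, SDHD and ATP5PO were called in both directions on different days, 3.37% of members against 3.07% of all genes.

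Complex I oxidises NADH, and 21 of its 37 members were higher and 7 lower on day 14. NDUFB10, an accessory subunit of the membrane arm, lay between 56.5 and 110.4 CPM on day 0 (median 71.6 CPM) and between 70.9 and 136 CPM on day 14 (median 102 CPM), and was higher in 41 of 42 steers. Its log2 fold change on day 14 was 0.51 ± 0.04 (SE, n = 42, edgeR FDR = 1.17e-26). NDUFB9, of the same arm, rose by 0.58 ± 0.19 (FDR = 0.00391), but only 26 of 42 steers moved that way, and its level ranged from 2.30 to 43.6 CPM on day 0 and from 4.17 to 57.9 CPM on day 14. The catalytic subunits of the matrix arm were divided. NDUFS3, NDUFS7, NDUFS8 and NDUFV1 were higher on all 5 days, whereas NDUFS1, the large iron-sulfur subunit, fell by 0.13 on day 14 (FDR = 7.14e-07) and was higher in 8 of 42 steers. NDUFS4, an accessory subunit, fell by 0.29 ± 0.10 on day 14 (FDR = 0.0053) and by 0.43 ± 0.10 on day 56 (FDR = 3.52e-05). Small accessory subunits were among the lower ones too, namely NDUFB3, NDUFC1, NDUFA5 and NDUFB2 on day 14.

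Complex II is succinate dehydrogenase, and all 4 of its members are encoded in the nucleus. All 4 were higher on day 14. The iron-sulfur subunit SDHB had a median of 126 CPM on day 0 (range 100.5 to 163 CPM) and 158 CPM on day 14 (range 115 to 208 CPM), a log2 fold change of 0.30 ± 0.03 (FDR = 7.66e-17) that was shared by 38 of 42 steers. The flavoprotein SDHA rose by 0.14 ± 0.03 on day 14 and by 0.26 ± 0.03 on day 21 (FDR = 8.92e-07 and 1.56e-17). The membrane anchors parted late: SDHC was 0.09 higher on day 56 (FDR = 0.00067), whereas SDHD, 0.14 higher on day 14, stood at −0.07 ± 0.03 on day 56 and was called lower (FDR = 0.0424). Of the assembly factors, SDHAF1 was higher on all 5 days (0.36 ± 0.04 on day 14), and SDHAF2 and SDHAF3 were also higher on day 14. SDHAF4 was called on days 3 and 7, and on day 14 had a value of 0.11 ± 0.05 (FDR = 0.0561).

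Complex III is the cytochrome bc1 complex, where 5 of 8 members were higher and 1 lower on day 14. The small subunits UQCR10 and UQCR11 rose by 0.49 ± 0.05 and 0.46 ± 0.05 (FDR = 3.74e-16 and 1.29e-18), in 36 and 40 of 42 steers. UQCRB, a small subunit near the quinone site, went the opposite way in nearly every steer. Its median was 30.2 CPM before administration, 28.9 CPM on day 3 and 30.3 CPM on day 7, and then dropped to 22.2 CPM on day 14, 21.6 CPM on day 21 and 21.9 CPM on day 56. The log2 fold change was −0.38 ± 0.06 on day 14 (FDR = 3.66e-09), with a lower level in 41 of 42 steers, and −0.47 ± 0.06 on day 21 (FDR = 6.01e-13), with a higher level in 5.

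Complex IV is cytochrome c oxidase, which has isoform pairs that differ between tissues, and 10 of its 15 members were higher and 1 lower on day 14. COX4I1, the form found in most tissues, lay between 180.3 and 387 CPM on day 0 (median 239 CPM) and between 194 and 435 CPM on day 14 (median 308 CPM), a rise of 0.40 ± 0.04 (FDR = 4.69e-19), and its partner COX4I2 did not pass the CPM limit. The forms known from heart and skeletal muscle were at low levels. COX6A2 rose by 0.43 ± 0.10 on day 14 from a median of 0.714 CPM to 1.02 CPM (FDR = 8.21e-05), beside 0.28 ± 0.04 for the common form COX6A1 (FDR = 1.5e-11). Among all genes tested, COX6A2 correlated most over the libraries with ITGAD, the gene next to it in gene order (r = 0.762). Whether reads of ITGAD entered the counts of COX6A2 was not tested. COX8B rose by 0.65 ± 0.10 from 0.844 CPM to 1.46 CPM (FDR = 7.4e-10), and COX7A1 was not called (0.09 ± 0.18, FDR = 0.673). Its common partner COX7A2 was not called on day 14 either (−0.07 ± 0.07, FDR = 0.371) and was lower on day 21 (−0.17 ± 0.07, FDR = 0.0294). The 8 muscle markers had a median log2 fold change of 0.48 on day 14 with 2 called higher, and of −3.73 on day 56 with 2 higher and 5 lower. All 8 were above 0 in only 19 libraries, so this median does not give the level of muscle transcripts. Their summed level did not fall, with a median of 11.52 CPM on day 0, 18.25 CPM on day 14 and 16.64 CPM on day 56. On day 56, COX6A2 and COX8B were still higher by 0.57 and 0.43. The part of muscle transcripts in these values was not tested. Without the 4 libraries over 100 CPM, 57 members were higher and 10 lower on day 14, as with them. None of those libraries came from day 0 or day 14, so that fit cannot decide the question for day 14.

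COX6B2, a form known from testis, rose from a median of 0.750 CPM on day 0 to 1.12 CPM on day 14 and 1.52 CPM on day 56, by 0.60 ± 0.11 and 0.99 ± 0.11 (FDR = 9.04e-07 and 8.65e-15). On day 56 it was higher in 40 of 42 steers, and its fold change was larger then than on any earlier day. The common form COX6B1 rose by 0.37 ± 0.05 on day 14 and 0.24 ± 0.05 on day 56 (FDR = 3.9e-11 and 8.52e-06). COX7B2, also a testis form, was listed at 0 CPM in the median library of day 0 and was not called on any day. COX7B was the lower member, at −0.39 ± 0.10 on day 14 (FDR = 0.000331) and −0.37 ± 0.10 on day 56 (FDR = 0.000669). NDUFA4 was 0.32 ± 0.05 higher on day 14 (FDR = 1.35e-10).

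Complex V makes ATP, and 12 of its 17 members were higher and 1 lower on day 14. ATP5MC1, ATP5MC2 and ATP5MC3 encode the same mature subunit of the rotating ring with different import sequences, and all 3 rose, by 0.40 ± 0.04, 0.38 ± 0.03 and 0.31 ± 0.04 on day 14 (FDR = 5.46e-17, 3.01e-21 and 6.63e-14). ATP5F1E, the epsilon subunit of the central stalk, had a median of 29.03 CPM on day 0 (range 14.3 to 64.5 CPM) and of 52.8 CPM on day 14 (range 18.7 to 107 CPM). It rose by 0.75 ± 0.11 in 37 of 42 steers (FDR = 5.7e-10). ATP5MPL, a small subunit of the membrane part, rose by 0.46 ± 0.05 (FDR = 5.4e-16). ATP5MD, which takes part in dimer formation, was the lower member, at −0.18 ± 0.08 (FDR = 0.0484). The supercomplex factor COX7A2L rose by 0.18 ± 0.03 on day 14 (FDR = 8.03e-07) and was not called on days 21 and 56.

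ATP5IF1 stood apart in size. It encodes the inhibitor that binds ATP synthase when it would run in reverse, and it has been linked to heme synthesis in maturing red cells. Its level was between 32.2 and 324 CPM on day 0 with a median of 76.6 CPM. The median rose to 143 CPM on day 3, 181 CPM on day 7 and 325 CPM on day 14, and then was 277 CPM on day 21 and 95.6 CPM on day 56, and the highest library of each later day lay between 551 and 1357 CPM. The log2 fold change was 0.96, 1.17, 2.01, 1.92 and 0.48 on the 5 days, each with an SE of 0.18 (FDR = 2.41e-06, 5.73e-09, 2.26e-21, 5.79e-20 and 0.0117). On day 14, 41 of 42 steers were above their own day 0.

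**Figure D2:**
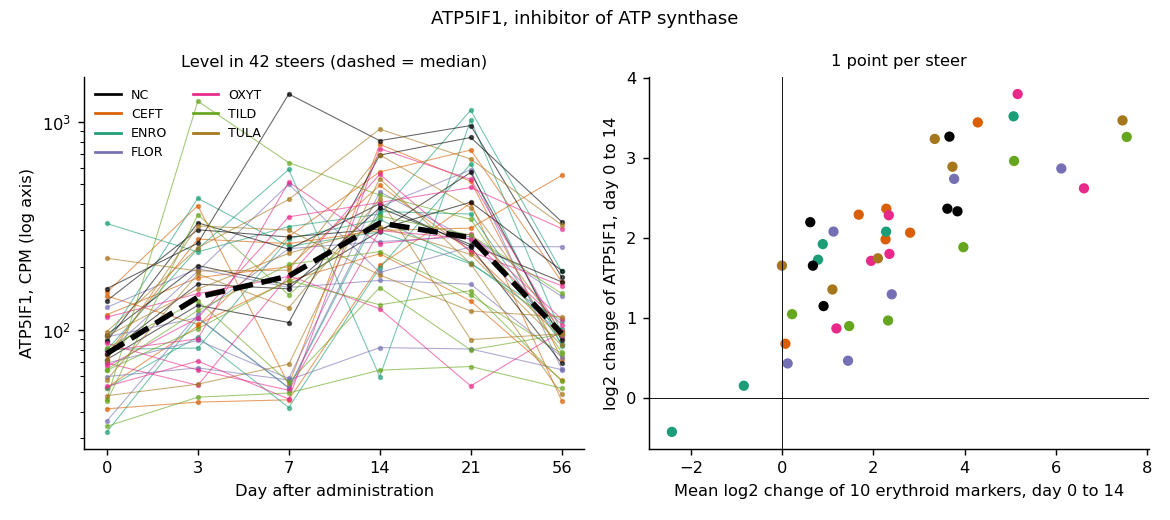
In the left panel each line is 1 steer, coloured by group, with ATP5IF1 in CPM on a log axis against the day, and the dashed line is the median of 42 steers, which peaks at 325 CPM on day 14. In the right panel each point is 1 steer, with the mean log2 change of 10 erythroid markers from day 0 to day 14 on the horizontal axis and the log2 change of ATP5IF1 on the vertical axis.

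The erythroid marker list moved with ATP5IF1. Its summed level ranged from 38.4 to 39299 CPM on day 0 and from 368 to 271640 CPM on day 14, with 5, 5, 9, 9 and 1 of 10 tested markers called higher on the 5 later days in order, and median log2 fold changes of 0.95, 1.04, 2.08, 1.93 and 0.49. HBA2 and CA1 of that list were not tested. Over the 42 steers, the change of ATP5IF1 from day 0 to day 14 followed the mean change of the erythroid list, with Pearson r = 0.823 and Spearman rho = 0.813 (permutation p = 1e-05 for both, the smallest that the shuffles can give, with FDR = 0.00267 and 0.00133 over 267 relations of 89 members with 3 marker lists). Leaving out the 2 steers farthest from the median erythroid change gave r = 0.813, and r was 0.878, 0.841 and 0.780 within lanes 1, 2 and 3. No other member passed for the erythroid list. NDUFA3 passed with the neutrophil list (r = 0.633, rho = 0.689, permutation FDR = 0.00267 and 0.00133, r = 0.599 without 2 steers, and 0.608, 0.789 and 0.394 within lanes), and SDHAF2 with the T cell list (r = −0.558, rho = −0.551, permutation FDR = 0.00712 and 0.0214, r = −0.561 without 2 steers, and −0.602, −0.787 and −0.637 within lanes). All 8 tested neutrophil markers were above 0 in only 70 libraries, so markers without counts in some libraries enter the mean of that list.

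Marker lists of leukocytes moved as well over the days in which members rose. On day 14, 9 of 11 T cell markers were higher and 1 lower, and their summed level went from 1384 to 3085 CPM (median 1920 CPM) on day 0 to 1877 to 4084 CPM (median 2586 CPM). All 8 monocyte markers were tested, 7 of which were lower on day 14, with summed levels of 1525 to 5728 CPM on day 0 and 970 to 2997 CPM on day 14. Of 8 neutrophil markers tested, 5 were lower and 0 higher, with summed levels of 1300 to 5128 CPM and 927 to 3518 CPM. B cell markers were higher in 6 of 8 and lower in 2 of 8. The part of these shifts in the levels of the members was not tested beyond the relations above.

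Some members varied far more among libraries than the rest, with an SD of log2 CPM of 2.04 for COX8A, 1.09 for ATP5ME and 0.948 for NDUFB9, against a median of 0.285 over the 89 members. The SD was also large for COX7B2 (1.328), ATP5IF1 (1.195), NDUFB6 (1.083) and COX7C (0.931). COX8A, the common form of its subunit, did not vary smoothly. It was under 20 CPM in 138 libraries, over 30 CPM in 112 and between these limits in 2, and 41 of 42 steers had libraries on both sides (the limits were chosen after the values were seen). From day 0 to day 56 in order, 16, 23, 18, 21, 19 and 15 of the 42 libraries of a day were over 30 CPM. Its fitted rise of 1.07 ± 0.46 on day 14 (FDR = 0.0371, 29 of 42 steers) rests on this division.

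COX8A, NDUFB9 and ATP5ME share a feature of position. For each of them, the gene with the lowest correlation among all 19056, over all libraries, lay within 2 places in gene order: OTUB1 next to COX8A (r = −0.346), RNF139 near NDUFB9 (r = −0.602) and SLC49A3 near ATP5ME (r = −0.480). For COX7B2, ATP5IF1, NDUFB6 and COX7C, which also varied widely, that gene was not found within 2 places. Of the members, 88 of the 89 could be placed in the gene order of ARS-UCD2.0. These correlations are descriptions, since all libraries come from 42 steers and the gene order comes from another assembly than the counts. On the log2 scale the nearby genes varied less than the members, but they stood at higher levels. Day 0 medians were 216, 91.4 and 60.7 CPM for OTUB1, RNF139 and SLC49A3. For COX8A, NDUFB9 and ATP5ME they were 5.94, 16.8 and 8.30 CPM. From day 0 to day 14 the SD of the within-steer log2 change was 3.21 for COX8A and 0.27 for OTUB1, 1.38 for NDUFB9 and 0.45 for RNF139, and 1.55 for ATP5ME and 0.39 for SLC49A3. It was 0.2, 0.24 and 0.30 for the summed CPM of these pairs in the same order. The sums had median log2 changes of 0.44, −0.02 and 0.53. How the counting divided reads between these genes was not tested, and changes of these members are uncertain.

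**Figure D3:**
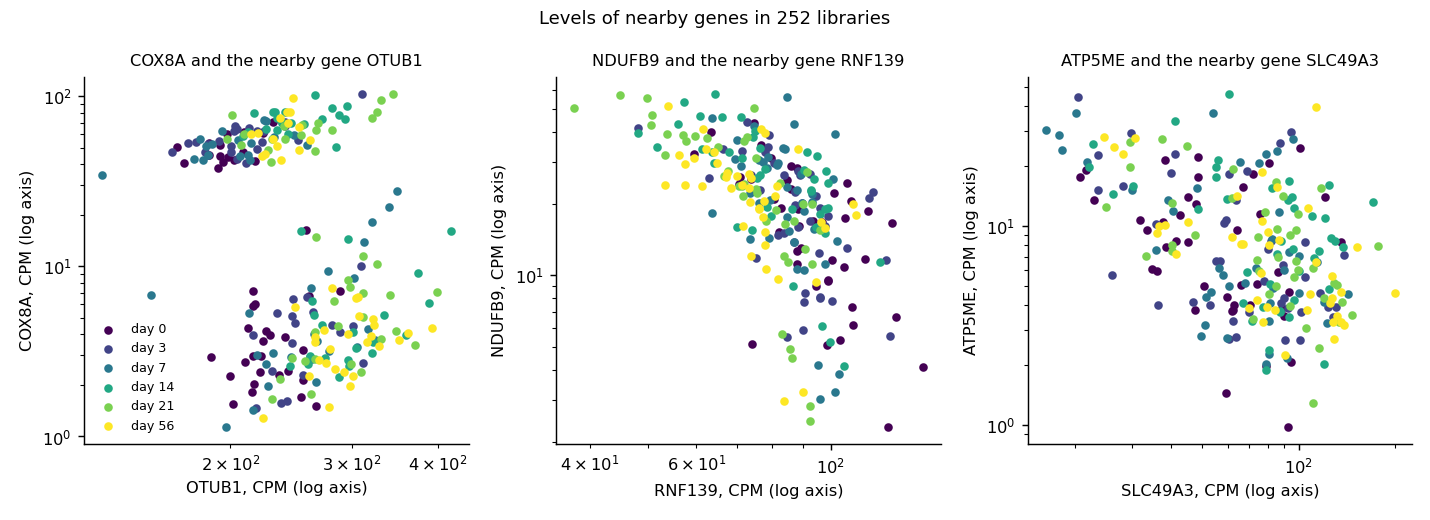
Each point is 1 library, coloured by day, with the level of the nearby gene on the horizontal axis and that of the member on the vertical axis, both in CPM on log axes. COX8A falls into a high and a low band, with 112 libraries over 30 CPM and 138 under 20 CPM, and NDUFB9 and ATP5ME fall as the nearby gene rises.

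Gene lists of related function moved to different extents. Of the 13 subunit genes of mitochondrial DNA, 7, 2, 10, 12 and 10 were higher on the 5 later days in order and 0 were lower, with a median of 0.58 on day 14. Mitochondrial ribosomal proteins, which translate those transcripts, had 54 of 77 higher and 6 lower on day 14 at a median of 0.26. Cytosolic ribosomal proteins had 36 of 50 higher and 5 lower at 0.38. Assembly factors of the complexes had 20 of 41 higher and 5 lower on day 14 at 0.09, but 13 higher and 15 lower on day 56. Enzymes of the TCA cycle were divided on day 14, with 8 of 16 higher and 7 lower, as were those of glycolysis, with 5 of 19 higher and 7 lower, and carriers and entry enzymes, with 3 of 7 each way. Regulators of mitochondrial genes were lower more often than higher, with 7 against 2 of 12 on day 14 and a median of −0.16.

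**Figure D4:**
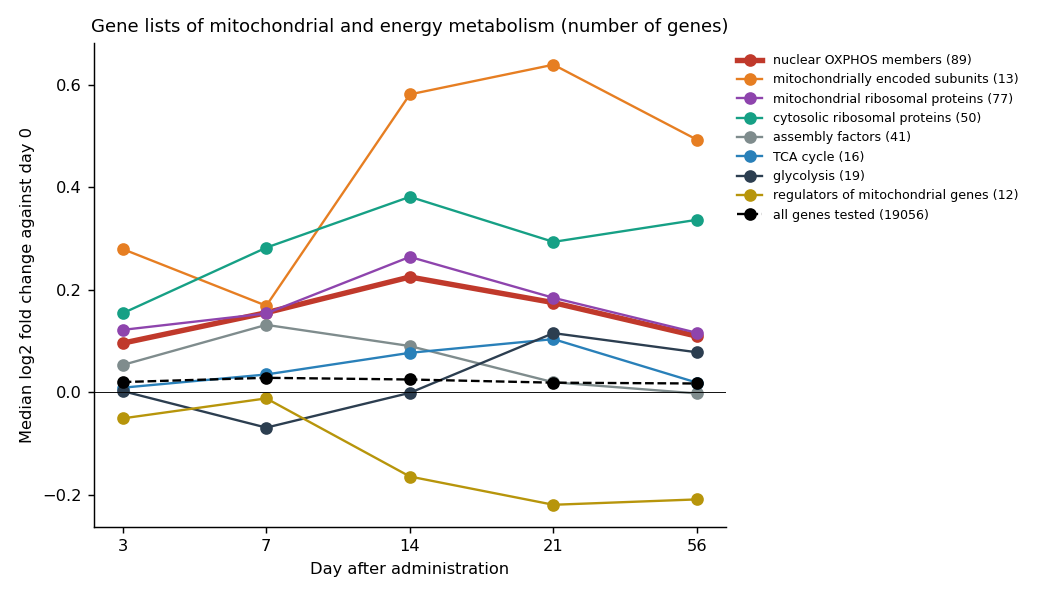
Each line is the median log2 fold change against day 0 (vertical axis) of 1 gene list on days 3 to 56 (horizontal axis), from the fit of 42 steers. The 89 members, drawn thick, follow the mitochondrial ribosomal proteins and peak at 0.22 on day 14, the genes of mitochondrial DNA lie above them, and all genes tested stay between 0.02 and 0.03.

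Treatments were then compared with NC on each day, 6 steers against 6, to ask whether an antimicrobial shifted these genes. Before administration, 0 members were called in any of the 6 comparisons at an edgeR FDR of 0.1, 0 to 5 members had an unadjusted p under 0.05, and DESeq2 called 2 in TILD and 0 in the other groups. After it, members were called in 6 of 30 comparisons, 5 of them on day 3, with 29 calls in all over 23 members. In the 30 comparisons without a member called, of which 6 were those of day 0, 0 members and 0.0198% of all genes were called by edgeR, with 0 to 32 members at an unadjusted p under 0.05 and 0 to 11 called by DESeq2 in each. Shares of all genes called by DESeq2 against NC are not given here, so its member counts cannot be set against them.

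The largest count was in CEFT on day 3, where 16 members were higher and 1 lower than in NC. In that comparison 4.47% of all genes were called higher and 3.53% lower. NDUFS7, which holds an iron-sulfur cluster of complex I, lay between 46.2 and 62.7 CPM in CEFT (median 52.5 CPM) and between 30.3 and 42.8 CPM in NC (median 36.1 CPM), with no overlap. Its log2 fold change was 0.54 ± 0.10 (SE, 6 against 6 steers, edgeR FDR = 0.0456), against 0.03 on day 0. ATP5F1D, the delta subunit of ATP synthase, lay between 132 and 173 CPM in CEFT (median 152 CPM) and between 91.3 and 117 CPM in NC (median 108 CPM), also without overlap, and was 0.51 ± 0.09 higher (FDR = 0.0456) against −0.05 on day 0. NDUFB7, NDUFA7 and UQCRB were the others with large changes, at 0.50 ± 0.12, 0.49 ± 0.13 and −0.57 ± 0.17 (FDR = 0.0623, 0.0769 and 0.0839), and the groups overlapped for all 3. The 2 subunits of succinate dehydrogenase that face the matrix were higher too, SDHB by 0.42 ± 0.08 and SDHA by 0.36 ± 0.08 (FDR = 0.0456 and 0.0612).

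**Figure D5:**
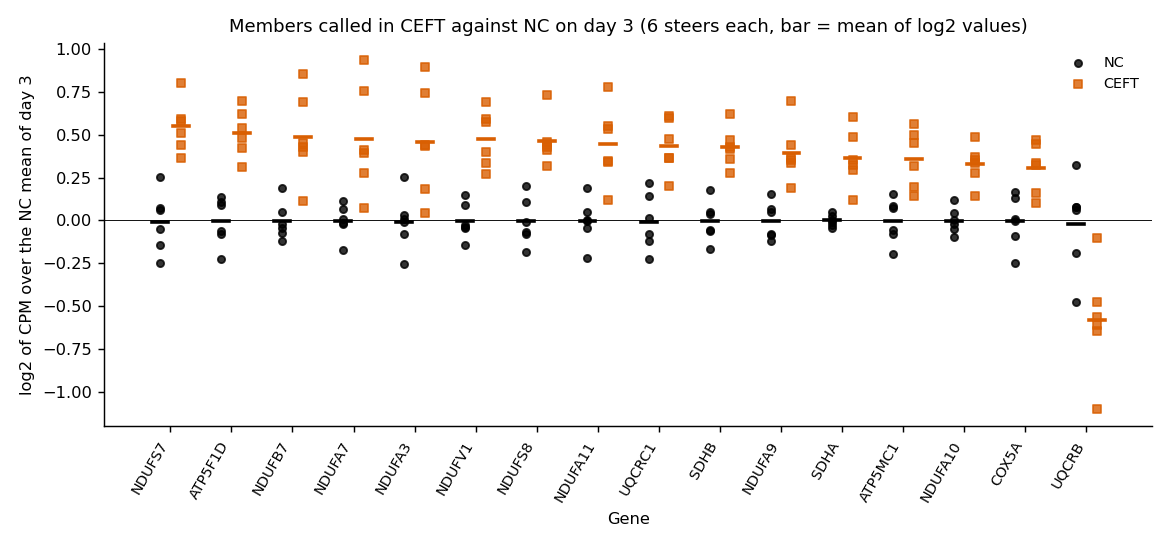
For members called in CEFT against NC on day 3 (horizontal axis, 1 of the 17 not shown), points give the log2 ratio of a steer's CPM to the NC mean of that day (vertical axis), with 6 NC steers in black, 6 CEFT steers in orange, and bars for the mean of the log2 values. Of the genes shown, UQCRB alone lies below NC.

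The CEFT calls on day 3 lay near the threshold. Leaving out steer 7, 12 or 15 of NC gave 0 member calls, leaving out steer 13 or 1 of NC gave 3 and 9, leaving out steers 6, 5 and 4 of CEFT gave 5, 6 and 11, and leaving out steer 8 of CEFT gave 37. Calls over all genes moved too. They numbered 2, 6 and 8 without steers 7, 12 and 15 of NC, and 124 and 418 without steers 13 and 1. They numbered 117, 205 and 554 without steers 6, 5 and 4 of CEFT, and 3405 without steer 8. The fold change of NDUFS7 stayed between 0.49 and 0.59 over these 12 fits, and its FDR between 0.0232 and 0.116. Without steers 5 and 10 of CEFT, the libraries with muscle transcripts, 0 members were called. Muscle markers were 14.7 to 424 CPM (unscaled) in CEFT and 5.74 to 13.7 CPM in NC that day, with 7 of 8 higher, and their part in the result was not tested beyond that fit. Erythroid, T cell and neutrophil markers had overlapping ranges, and 1 of 11 T cell markers was called, as lower. No CEFT steer shared a lane with an NC steer, so that lane and treatment cannot be told apart on the day itself.

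Fewer members were called elsewhere. TILD on day 3 had 5 higher and 0 lower, with 0.950% of all genes called higher, among them ATP5MC1, NDUFA10, NDUFA3 and NDUFA7. ATP5MC1 lay between 37.4 and 46.8 CPM in TILD and between 26.6 and 33.95 CPM in NC, without overlap, and was 0.38 ± 0.08 higher (FDR = 0.0662). NDUFA7, NDUFA10 and NDUFA3 were higher by 0.37 ± 0.08, 0.29 ± 0.07 and 0.49 ± 0.10 (FDR = 0.0616, 0.095 and 0.0635). On day 0 the differences for ATP5MC1, NDUFA7, NDUFA10 and NDUFA3 already stood at 0.14, 0.13, 0.06 and 0.27. Their changes from day 0 were not called against those of NC (edgeR FDR = 0.655, 0.624, 0.514 and 0.774). Leaving out a single steer changed the count of 5 to 0 for steers 7 and 12 of NC and steer 5 of TILD, to 1 for steers 13 and 15 of NC and steer 10 of TILD, and to 2 for steer 2 of TILD. Over all genes, 8, 22 and 17 were called without steers 7 and 12 of NC and steer 5 of TILD. Without steers 13 and 15 of NC and steers 10 and 2 of TILD the counts were 71, 63, 26 and 102. ENRO and FLOR had 1 higher member each on day 3, NDUFB7 at 0.29 ± 0.07 (FDR = 0.0964) and NDUFB10 at 0.34 ± 0.08 (FDR = 0.0875), with 1.25% and 0.530% of all genes called higher. The differences on day 0 were 0.05 for NDUFB7 in ENRO and 0.19 for NDUFB10 in FLOR. Neither change from day 0 was called against that of NC (edgeR FDR = 0.9 and 0.866).

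OXYT on day 3 had 2 lower members, both of ATP synthase, and 1.13% of all genes called lower. ATP5F1E lay between 20.1 and 32.2 CPM in OXYT (median 27.7 CPM) and between 30.5 and 59.8 CPM in NC (median 55.7 CPM), with a log2 fold change of −0.93 ± 0.16 (FDR = 0.0418). ATP5IF1 lay between 53.95 and 149 CPM in OXYT (median 80.4 CPM) and between 131 and 326 CPM in NC (median 232 CPM), with a log2 fold change of −1.37 ± 0.28 (FDR = 0.0663). The groups overlapped for both genes. On day 0, before administration, the differences already stood at −0.49 and −0.42, and their change from day 0 was not called against that of NC (FDR = 1 and 0.996). Summed erythroid markers that day were 206 to 14000 CPM in OXYT and 2860 to 61400 CPM in NC, and their part in the ATP5IF1 value was not tested beyond the relation over steers given above.

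CEFT on day 14 had 3 higher members, and 0.210% of all genes were called higher. UQCR10 lay between 45.9 and 69.6 CPM in CEFT (median 52.9 CPM) and between 31.2 and 41.8 CPM in NC (median 34.3 CPM) and was 0.61 ± 0.11 higher (FDR = 0.0653). NDUFA12 and NDUFB1, accessory subunits of complex I, lay between 10.7 and 16.8 CPM and between 14.6 and 21.9 CPM in CEFT, against 6.35 to 8.82 CPM and 7.83 to 13.1 CPM in NC. They were higher by 0.77 ± 0.15 and 0.74 ± 0.14 (FDR = 0.0866 and 0.0868). The groups did not overlap for any of the 3. Since a test on the same values picked them, this adds no further support, here or for the members called on day 3. On day 0 the differences for UQCR10, NDUFA12 and NDUFB1 were −0.09, −0.13 and −0.03. Leaving out any single steer but number 8 of CEFT brought the count of 3 to 0 or 1. Those fits called 11 to 41 genes in all. Cytosolic ribosomal proteins moved along with 14 of 50 higher, whereas of mitochondrial ribosomal proteins 0 of 77 were called.

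The change from day 0 removes differences between steers and lanes that were there before administration, and it was compared with the change in NC in a fit of all libraries. Members were called in 5 of 30 comparisons, with 37 calls over 34 members. In the other 25 comparisons 0 members and 0.00525% of all genes were called. CEFT had 9 higher on day 3, when 1.14% of all genes were called higher, and 7 higher on day 14, when 0.394% were. On day 3 these were ATP5F1D, ATP5MC3, COX5A, NDUFA10, NDUFA9, NDUFB7, NDUFS7, NDUFV1 and SDHB, by 0.33 to 0.58. On day 14 they were ATP5MC3, ATP5PD, COX5B, COX6B1, NDUFA12, NDUFB1 and UQCR10, by 0.46 to 0.91. COX6B1 went from between 58.8 and 87.5 CPM on day 0 to between 106 and 184 CPM on day 14 in CEFT, and from between 72.5 and 85.4 CPM to between 74.3 and 100.9 CPM in NC, so that the CEFT change was 0.74 ± 0.17 larger (FDR = 0.0268). All 6 CEFT steers had a median change over members above 0 on day 14, from 0.242 to 0.715, and NC steers ranged from −0.056 to 0.285.

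ENRO on day 7 had 19 lower members and 0 higher, and 5.11% of all genes were called lower. These 2 groups shared lane 1. The lower members included NDUFB9 (−1.93 ± 0.70), COX8B (−0.90 ± 0.34), NDUFA3 (−0.57 ± 0.18), NDUFS8 (−0.47 ± 0.15), SDHAF1 (−0.46 ± 0.12) and NDUFA7 (−0.46 ± 0.14), with an FDR of 0.0787, 0.0974, 0.0423, 0.0519, 0.0188 and 0.0413. On day 7 itself, edgeR called no member in ENRO against NC, and DESeq2 called 6. In the same order, day 7 means were 9.97, 0.912, 60.6, 58.1, 17.9 and 34.8 CPM in ENRO. They were 25.8, 1.81, 68.6, 72.2, 22.35 and 47.4 CPM in NC. COX8B was thus at a low level, and changes of NDUFB9 are uncertain as given above. Summed muscle markers (unscaled) on day 7 were 4.36 to 45.3 CPM in ENRO and 4.98 to 368 CPM in NC. On day 0 they were 5.13 to 82.2 CPM in ENRO and 5.82 to 36.7 CPM in NC. Their part in the change of COX8B, a form known from muscle, was not tested. SDHAF1 went from a range of 16.8 to 24.4 CPM on day 0 to 16.4 to 19.8 CPM on day 7 in ENRO, and from 16.4 to 21.2 CPM to 18.9 to 26.1 CPM in NC. The median change over members was −0.525, −0.254, −0.23, −0.055, 0.038 and 0.182 in the 6 ENRO steers and ranged from −0.071 to 0.582 in the 6 NC steers, whose next highest value was 0.133. Steer 10 of ENRO and steer 5 of NC were the ends of these ranges. Of neutrophil markers 2 of 8 were called lower, and 1 of 10 erythroid markers was called lower. Outside the members, 5 of 19 glycolysis genes and 7 of 77 mitochondrial ribosomal proteins were called lower. The part of cell types in this result was not tested.

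These changes rested on the fit over all groups. Without the steer block, 0 members were called in any of the 30 comparisons. Over all genes, that fit called 12 for CEFT on day 3, 1 for CEFT on day 14 and 41 for ENRO on day 7. Fitted with the block on the 2 groups and 2 days alone, CEFT on day 3 had 15 member calls, CEFT on day 14 had 0 and ENRO on day 7 had 0, at median differences over members of 0.18, 0.32 and −0.24. Over all genes, these 3 fits called 1100, 0 and 0. In those smaller fits, CEFT on day 3 had 0 calls without any single NC steer or without steer 3, 4 or 5 of CEFT, 5 without steer 6 and 11 without steer 10. Over all genes the calls were 0 without any single NC steer or steer 3 of CEFT. They were 109, 65, 301 and 1125 without steers 4, 5, 6 and 10 of CEFT. CEFT on day 14 had 7 without steer 8 of CEFT and 0 or 1 without any other steer. Over all genes, 32 were called without steer 8 of CEFT and at most 5 without any other steer. The median difference for ENRO on day 7 was −0.15 without steer 10 of ENRO and −0.17 without steer 5 of NC. Outside these groups, NDUFC1 had a change 0.80 ± 0.22 larger in OXYT by day 56 (FDR = 0.0459, 1.34% of all genes higher), and UQCRB differed by −0.71 ± 0.20 in TILD by day 21 (FDR = 0.0675, 2.74% of all genes lower). FLOR and TULA had 0 members called in this test on any day, where 0 to 8 members had an unadjusted p under 0.05 and limma voom called 0. On day 3, 2 of the 13 genes of mitochondrial DNA were higher in FLOR than in NC, at a median of 0.80 over the list, and 0 in OXYT at 0.19.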

How the data were processed

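Blood RNA from 42 steers on 6 days gave 1 stranded mRNA library for each steer and day. Per the labels and the study's methods, the authors trimmed reads (Trimmomatic 0.39), aligned them (HISAT2) to a bovine genome, assembled transcripts (StringTie 2.2.0), exchanged their tags for gene symbols and turned coverage into whole-number counts assuming a read length of 150. The deposited counts carry no normalization or lane adjustment, and the number of counts limits precision for low genes. Genes with CPM above 0.2 in 12 libraries were kept and scaled by TMM. edgeR 4.0.16 quasi-likelihood fits compared days with day 0 (steer as block, FDR 0.05), each treatment with NC per day, and changes from day 0 (steer as block, FDR 0.1), with Benjamini-Hochberg adjustment over 19056 genes. Libraries of a steer pair by animal, and their deviations on days 0 and 14 correlated at r = 0.193 to 0.429. SEs were taken as the absolute log2 fold change over the square root of F. DESeq2 1.42.0, limma 3.58.1 and sva 3.50.0 served alternatives, and the edgeR fits were tested on simulated data. Relations over steers used 100000 shuffles. Named genes were the 2 largest rises and falls of each complex on the day with the most calls, SDHA to SDHD, ATP5IF1, COX7A2L, NDUFA4, isoform families, and treatment calls (all where 12 or fewer, otherwise the 6 largest). Values of genes outside that rule were chosen after seeing them. Gene lists and members were chosen with earlier results of these data known. Counts of paralogs and retrocopies are uncertain, and levels were not compared between genes. Sequences were not analysed here, and 1 member is counted but not reported here.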

Additional observations from a re-analysis of the deposited data

Results flagged for a closer look

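Single steers far from the other 5 of their group on a day were looked for in the level of ATP5IF1 and in the mean level of the 89 members, in log2 CPM. Of 84 groups tested, 6 had such a steer by Dixon's criterion, where chance gives about 1 in 20. For ATP5IF1, steer 5 of NC stood at 10.41 on day 7, when the others lay between 6.76 and 8.12. Steer 6 of ENRO stood at 5.89 on day 14 (others 7.63 to 8.53), steer 10 of ENRO at 7.57 on day 56 (others 6.39 to 6.79) and steer 9 of OXYT at 5.74 on day 21 (others 7.89 to 9.04). For the mean of the members, steer 5 of OXYT was low on day 0 at 4.63 (others 4.79 to 4.88) and high on day 7 at 5.50 (others 4.62 to 4.94).

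Changes from day 0 that differed from those in NC by an edgeR test of the difference itself were found in 5 comparisons. In CEFT by day 14 the differences were 0.46 for ATP5MC3, 0.47 for ATP5PD, 0.54 for COX5B, 0.74 for COX6B1, 0.91 for NDUFA12, 0.81 for NDUFB1 and 0.74 for UQCR10 on the log2 scale. In CEFT by day 3 they were 0.58 for ATP5F1D, 0.40 for ATP5MC3, 0.40 for COX5A, 0.34 for NDUFA10, 0.33 for NDUFA9, 0.57 for NDUFB7, 0.53 for NDUFS7, 0.47 for NDUFV1 and 0.34 for SDHB. In ENRO by day 7 the 6 largest of 19 were −1.93 for NDUFB9, −0.90 for COX8B, −0.57 for NDUFA3, −0.47 for NDUFS8, −0.46 for SDHAF1 and −0.46 for NDUFA7. NDUFC1 stood at 0.80 in OXYT by day 56, and UQCRB at −0.71 in TILD by day 21.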

How the results depend on the processing

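Day counts changed most with the steers used. Against 38, 57, 67, 61 and 54 members called on the 5 later days in order, lane 1 alone gave 1, 6, 33, 24 and 24 and NC alone 0, 2, 20, 22 and 17, with fewer steers in each fit. As shares, lane 1 had 1.12%, 6.74%, 37.1%, 27% and 27% of members called, below the 5.32%, 14.1%, 39.2%, 36.6% and 43.7% of all genes on each day. NC had 0%, 2.25%, 22.5%, 24.7% and 19.1% of members against 0.0262%, 2.2%, 25.9%, 20.4% and 25.7% of all genes. Lane 2 alone gave 23 on day 3 and lane 3 alone 35 on day 7, and the day 7 median became −0.019 in lane 1. On day 14, signs turned for ATP5MD (0.016) and COX7A2 (0.16) in lane 3, for SDHD (−0.014) and COX6B1 (−0.016) in lane 1, for COX7A1 in lane 1 (−0.14), lane 3 (−0.051) and NC (−0.18), and for COX7B2 in lane 1 (−1.01), NC (−0.66) and limma voom (−0.022). The cause was not tested. DESeq2, limma voom, other scalings and hemoglobin removal kept each day count within 1.5 times.

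Calls against NC on a day depended on the method. The 29 calls became 14 without a filter on low counts, 159 with DESeq2, 3 with ComBat_seq by lane and a likelihood ratio test, 0 with lane as a term and 11 without the libraries rich in muscle transcripts (chosen after seeing the data). In the same order, CEFT on day 3 gave 10, 37, 0, 0 and 0. TILD on day 3 gave 2, 12, 1 and 0 in the first 4, and CEFT on day 14 gave 0, 14, 0 and 0. Calls over all genes in these alternative fits are not given here, so their member counts cannot be read as particular to the members. NDUFA12 in CEFT on day 14 turned to −0.77 with lane as a term. All NC steers were on lane 1 and all CEFT steers on lane 3. Adjusting counts by lane therefore also takes out a CEFT difference from NC. A lane term reaches that difference only through the FLOR and TILD steers that were split over lanes. The 2 lane fits thus cannot tell lane from treatment for CEFT. Leaving out 1 steer gave 0 to 37 calls for CEFT on day 3, 0 to 5 for TILD on day 3 and 0 to 3 for CEFT on day 14. Over all genes, the calls ranged from 2 to 3405, 8 to 455 and 11 to 56 in these comparisons. No paired analysis was possible because steer numbers name different animals in different groups.

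Changes from day 0 rested on the replicate block. Without it, the 37 calls became 0, the counts for ENRO on day 7 and CEFT on days 3 and 14 were 0, and COX7B2 turned to −0.077 on day 14 against day 0. CEFT on day 3 gave 4 calls with hemoglobin removed and 3 with limma voom, where 289 and 259 of all genes were called. In the same 2 fits, CEFT on day 14 gave 7 and 8 calls, with 179 and 150 over all genes. ENRO on day 7 gave 21 and 17, with 1767 and 2222 over all genes. Fits of 2 groups and 2 days (added after seeing the data) gave 15 for CEFT on day 3, 0 for CEFT on day 14 and 0 for ENRO on day 7, and leaving out 1 steer gave 0 to 20, 0 to 7 and 0. Over all genes, the whole fits called 1100, 0 and 0, and leaving out 1 steer gave 0 to 1745, 0 to 32 and 0. The fit of changes without a filter on low counts was not run. Library totals limit genes near 1 CPM, such as COX6A2, COX6B2 and COX8B.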
